A study of Homo sapiens with 28 samples.

Results

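Nucleotide excision repair cuts bulky lesions, among them the crosslinks that cisplatin leaves between neighbouring bases, out of one DNA strand and fills the gap from the other. A lesion is met either by surveillance factors anywhere in the genome or, in transcribed genes, by a stalled RNA polymerase with ERCC6 (CSB) and ERCC8 (CSA). The TFIIH helicases ERCC2 (XPD) and ERCC3 (XPB) open the DNA, XPA checks the damage, RPA1 coats the undamaged strand, and the nucleases ERCC4 (XPF) with its partner ERCC1 and ERCC5 (XPG) cut on either side. Germ cell tumours, the source of embryonal carcinoma lines, are known for their sensitivity to cisplatin. The genes described here are these 9, chosen by name. Of the 9, 7 had a gene-level value of their own, and XPA and ERCC6 were read from exon probesets.

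The series measured total RNA on Affymetrix Human Exon 1.0 ST arrays, which carry probes in most known exons. The embryonal carcinoma (EC) lines 833KE, 2102Ep, TERA1, NTERA2 and NCCIT were grown in plastic flasks with fetal calf serum (n = 5). The EC lines NTERA2, 2102Ep and 833KE were grown a second time on mitomycin C-inactivated mouse embryo fibroblasts (feeders) in serum replacement medium with FGF (n = 3). The embryonic stem (ES) lines H9, H14, Shef3, Shef5, Shef 6 and Shef7 were grown on the same kind of feeders and medium (n = 6). Cells of every group were sorted for the glycolipid antigen SSEA3, so the arrays describe the SSEA3-positive cells of each culture. Each array is a separate line or growth condition, and no line was measured more than once in a condition.

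A gene-level value, called a cluster, sums up all core probes of a gene, and a probeset sums up the few probes of about one exon. There were 22011 clusters, 14432 of them annotated to 1 symbol, and 287329 probesets, of which 158 belonged to 1 of the 9 genes alone. They numbered 26 for ERCC5, 24 for ERCC2, 20 each for ERCC6 and RPA1, 19 for ERCC3, 17 for ERCC1, 16 for ERCC4, 9 for XPA and 7 for ERCC8. A further 38 probesets and 5 clusters were shared with another gene and were not used for the 9 genes. All values are on a log2 scale, so a difference of 1 is a doubling of signal, and levels are compared between arrays for 1 gene, not between genes. A gene is said to be called, or to have risen or fallen, where limma's adjusted p over all features was under 0.05. In cells of a bulk sample, less RNA per cell cannot be told apart from fewer cells that hold it.

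The labels also carry a number for each array. ES lines H14 and Shef5 and the feeder arrays of NTERA2 and 2102Ep have codes up to 13, and the other 10 arrays have codes from 17. Array medians lay between 6.19 and 6.39 at gene level and between 6.45 and 6.80 at exon level. The mean level over 8 measured pluripotency markers ran from 10.14 to 11.34 in EC lines on plastic, 10.20 to 10.93 in EC lines on feeders and 9.99 to 11.09 in ES lines, and none of the 8 was called in either EC-ES comparison. Of 11 fibroblast markers, COL5A2 (-1.40), COL6A1 (-1.32) and COL1A1 (-1.65) were lower in EC lines on plastic than in ES lines, with adjusted p of 0.0188 or less. So were GATA6 (-0.77) and SOX17 (-0.65) of 8 markers of differentiated derivatives, with adjusted p of 0.0273 or less. Against ES lines, 9 of the 11 fibroblast markers had lower means on plastic and 2 had higher ones, up to 0.91. On feeders 8 were lower and 3 higher, up to 1.26. All 8 differentiated markers had lower means on plastic, and on feeders 6 were lower and 2 higher. The mean over the fibroblast list ran from 4.65 to 5.38 in EC lines on plastic, 5.40 to 5.51 in EC lines on feeders and 5.27 to 6.35 in ES lines, and that over the differentiated list from 5.15 to 5.55, 5.49 to 5.85 and 5.46 to 6.45. None of these 19 markers was called between EC lines on feeders and ES lines.

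ERCC2 fell in EC lines and was the only one of the 9 genes to be called against ES lines. ERCC3, the other TFIIH helicase, had higher values in every EC array than in every ES array but missed the threshold. The stretches of 250 bases before their start sites are shown because these are the 2 genes whose EC and ES cluster values did not overlap in either comparison. Both come from RefSeq (GRCh38.p14, minus strand), at chr19:45370574-45370823 for ERCC2 and chr2:127294145-127294394 for ERCC3. They are written 5′ to 3′ along the gene, with matches to 6 common promoter elements in capitals.
ERCC2: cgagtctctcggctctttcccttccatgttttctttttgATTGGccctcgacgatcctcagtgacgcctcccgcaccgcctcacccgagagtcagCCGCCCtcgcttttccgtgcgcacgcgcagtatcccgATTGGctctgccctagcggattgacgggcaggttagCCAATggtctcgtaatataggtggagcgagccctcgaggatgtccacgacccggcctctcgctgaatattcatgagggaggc
ERCC3: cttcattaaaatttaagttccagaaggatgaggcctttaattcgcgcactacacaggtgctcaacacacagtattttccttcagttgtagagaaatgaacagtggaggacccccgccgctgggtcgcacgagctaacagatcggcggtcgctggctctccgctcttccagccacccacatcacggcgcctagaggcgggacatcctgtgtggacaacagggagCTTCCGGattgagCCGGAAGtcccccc

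The elements searched on both strands were the CCAAT box (CCAAT), the GC box (GGGCGG), the ETS core (CCGGAAG), the TATA box (TATAAA), the E-box (CACGTG) and the cyclic AMP element (TGACGTCA). The ERCC2 stretch held 3 CCAAT boxes and 1 GC box, and no match overlapped another. The ERCC3 stretch held 2 ETS cores on opposite strands, at 27 to 21 and 14 to 8 bases before the start, and neither of the ERCC2 elements. Over the 35116 promoters of the table, 32% held a CCAAT box, 42.6% a GC box, 8.52% an ETS core, 10.7% a TATA box, 6.34% an E-box and 1.65% the cyclic AMP element. Of the 12 promoters listed for the 9 genes, 4 held a CCAAT box, 6 a GC box, 2 an E-box, the ETS core was in that of ERCC3 alone, and none held a TATA box or the cyclic AMP element. A match here is a description of the letters, and no factor's binding was measured.

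ERCC2 unwinds DNA around the lesion within TFIIH. Its cluster read 7.67 in NCCIT, 7.44 in 2102Ep, 7.48 in 833KE, 7.74 in TERA1 and 7.93 in NTERA2 on plastic. On feeders it read 7.62 in NTERA2, 7.87 in 2102Ep and 7.60 in 833KE. In ES lines the lowest value was 8.17 in Shef7, the median 8.54 and the highest 8.86 in H9. All 8 EC arrays lay below all 6 ES arrays, and EC lines on plastic and on feeders covered about the same range. All EC arrays stood below all ES arrays at 1.52% of clusters for plastic and 3.08% for feeders.

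The mean of ERCC2 was 7.65 ± 0.20 in EC lines on plastic (SD, n = 5) and 8.53 ± 0.26 in ES lines (SD, n = 6). The difference was -0.88 ± 0.15 (SE, 95% interval -1.21 to -0.55, adjusted p = 0.00839), or 1.84-fold lower. Over all clusters, 1.34% were called lower and 3.26% higher in this comparison, and of the 7 genes with a cluster 1 was called. The call held in all 22 alternatives tested with limma, with differences from -1.03 to -0.79 and adjusted p from 0.00143 to 0.0419. Among the 10 arrays with later codes alone it was -0.87 (adjusted p = 0.0419), and relative to other genes of the chromosome -0.79 (adjusted p = 0.0119). The part in this result of the fibroblast and differentiation markers that were lower in the same EC arrays was not tested.

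EC lines on feeders, which share medium and feeders with the ES lines, gave a mean ERCC2 value of 7.70 ± 0.15 (SD, n = 3), against 8.53 ± 0.26 in ES lines (SD, n = 6). The difference was -0.83 ± 0.18 (SE, 95% interval -1.23 to -0.44, adjusted p = 0.0418), or 1.78-fold lower, with 0.731% of all clusters called lower and 1.56% higher. This call stood close to the threshold. It was lost without any single array except Shef7, with adjusted p from 0.0572 to 0.0979 for the 8 other omissions and 0.0460 without Shef7. It was also lost with the array code blocked (adjusted p = 0.0574), with a trended robust variance (0.0518) and on probeset medians (0.0785). The difference stayed between -1.01 and -0.77 in all 18 alternatives. Later-coded arrays alone leave 833KE as the only EC array on feeders, so they cannot test the call. It read 7.60, against a mean of 8.52 in the later-coded ES lines. Both comparisons use the same 6 ES arrays, so they are not independent of each other.

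The labels give the same lines and array codes at gene and exon level, so the probesets are not independent of the cluster. The 24 ERCC2 probesets were lower in EC lines than in ES lines without exception. On plastic the median difference was -0.84, from -1.23 to -0.26, and on feeders -0.80, from -1.25 to -0.06. All EC arrays stood below all ES arrays at 10 of them on plastic and 12 on feeders, against 0.985% and 2.38% of all 287329 probesets. On plastic, 7 of the 24 were called, where 0.745% of all probesets were called lower and 2.07% higher. These were probesets 3865313, 3865314, 3865318, 3865320, 3865323, 3865326 and 3865328, with differences between -1.23 and -0.92. On feeders only probeset 3865320 was called, where the background was 0.344% lower and 0.61% higher. At that probeset EC lines on plastic read from 9.17 to 9.80, EC lines on feeders from 9.29 to 9.74 and ES lines from 10.61 to 10.94. The differences there were -1.23 (adjusted p = 0.0059) on plastic and -1.25 (adjusted p = 0.0327) on feeders. No probeset of the other 8 genes was called. The number called on feeders depended on the processing. It stayed at 1 in 2 alternatives and changed in 13, up in some and down in others.

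**Figure D1:**
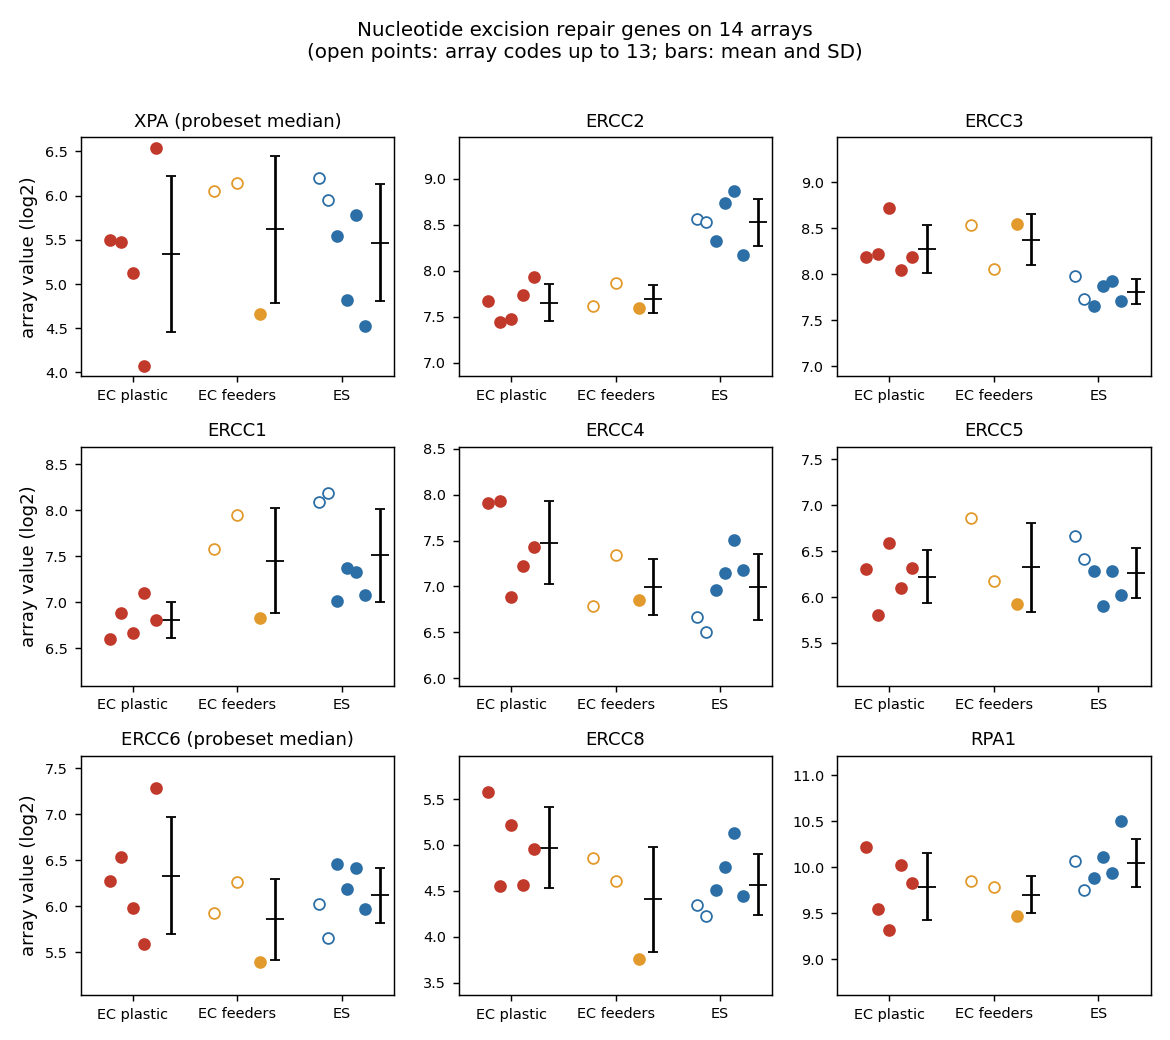
Array value (log2) of each of the 9 genes in EC lines on plastic, EC lines on feeders and ES lines; each point is 1 array, open points have array codes up to 13, and bars give the mean and SD. ERCC2 is below 8 in all EC arrays and above 8 in all ES arrays, ERCC3 is the other way round, and ERCC1 separates open from filled points.

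ERCC3 is the TFIIH translocase that drives the first opening of DNA in both repair and transcription. On plastic its cluster read 8.19 in NCCIT, 8.22 in 2102Ep, 8.73 in 833KE, 8.05 in TERA1 and 8.19 in NTERA2. On feeders it read 8.54 in NTERA2, 8.05 in 2102Ep and 8.55 in 833KE. ES lines ran from 7.65 in Shef 6 through a median of 7.80 to 7.98 in H14. The lowest EC array was thus just above the highest ES array, and 833KE was the highest EC line in both growth conditions.

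The mean ERCC3 value was 8.28 ± 0.26 in EC lines on plastic (SD, n = 5) and 7.81 ± 0.13 in ES lines (SD, n = 6), a difference of 0.46 (95% interval 0.16 to 0.76, adjusted p = 0.0845). EC lines on feeders averaged 8.38 ± 0.28 (SD, n = 3), a difference of 0.57 from the same ES lines (95% interval 0.21 to 0.92, adjusted p = 0.10). All EC arrays stood above all ES arrays at 2.85% of clusters for plastic and 5.78% for feeders. All 19 ERCC3 probesets had higher means in EC lines, with a median difference of 0.51 on plastic and 0.53 on feeders, and none was called. The smallest p was at probeset 2574761 on feeders, with a difference of 1.13 (adjusted p = 0.0937). No alternative tested with limma brought ERCC3 under the threshold. Its adjusted p ranged from 0.0734 to 0.207 on plastic and from 0.0800 to 0.233 on feeders. On the median over its probesets, EC and ES arrays overlapped in both comparisons. The exact permutation p of these medians, two-sided and with no adjustment, was 0.0152 on plastic and 0.0357 on feeders.

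**Figure D2:**
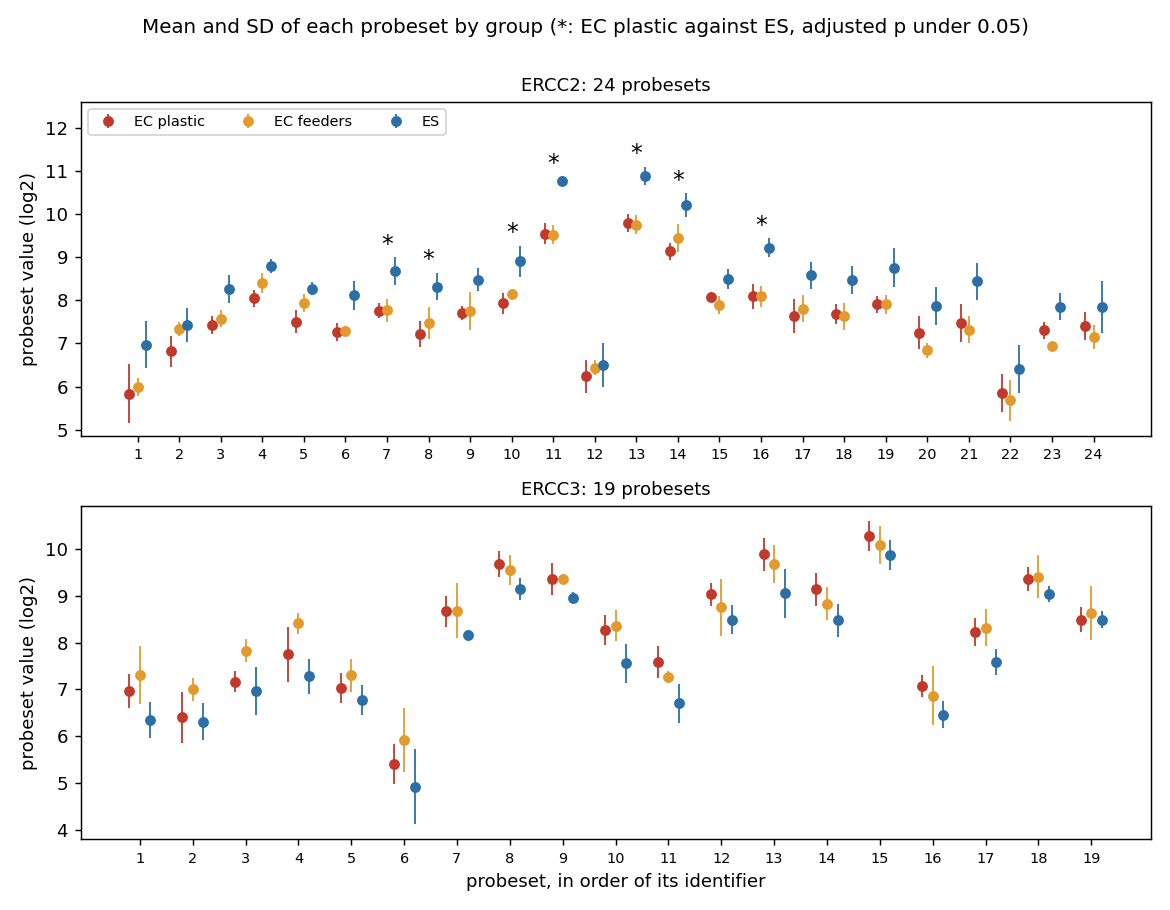
Mean and SD of each probeset value (log2) of ERCC2 and ERCC3 in EC lines on plastic (n = 5), EC lines on feeders (n = 3) and ES lines (n = 6), with probesets in order of identifier. Both EC groups lie below ES lines at all 24 ERCC2 probesets and above them at all 19 ERCC3 probesets; stars mark the 7 probesets called for EC lines on plastic.

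XPA binds damaged DNA and holds the repair complex together, and its only cluster was shared with NCBP1. The median over its 9 probesets was 5.34 ± 0.88 in EC lines on plastic (SD, n = 5), 5.62 ± 0.83 in EC lines on feeders (SD, n = 3) and 5.47 ± 0.66 in ES lines (SD, n = 6). The groups overlapped widely, with TERA1 lowest at 4.08 and NTERA2 on plastic highest at 6.54. The difference from ES lines was -0.12 on plastic (95% interval -0.98 to 0.73, adjusted p = 0.904) and 0.15 on feeders (95% interval -0.74 to 1.04, adjusted p = 0.895). In this fit of probeset medians over 16941 genes, 1.71% were called lower and 4.83% higher on plastic, and 1.2% lower and 2.5% higher on feeders. The exact permutation p was 0.797 on plastic and 0.655 on feeders. These intervals leave room for a change of over 0.7 in either direction. Of single probesets, 3216984 had the smallest p, at 0.87 on feeders (adjusted p = 0.430).

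RPA1 is the large subunit of the single-strand binding protein RPA, which serves replication as well as repair. It read from 9.32 in 833KE to 10.23 in NCCIT on plastic, from 9.47 in 833KE to 9.85 in NTERA2 on feeders, and from 9.75 in Shef5 to 10.50 in Shef7 among ES lines. The EC arrays of 833KE were thus the lowest, and the groups overlapped. The difference from ES lines was -0.25 on plastic (95% interval -0.66 to 0.15, adjusted p = 0.513) and -0.34 on feeders (95% interval -0.75 to 0.07, adjusted p = 0.376). Of its 20 probesets, 19 had lower means on plastic and 17 on feeders, and none was called. Its probeset with the smallest p in any comparison was 3706032, at 0.79 between feeders and plastic (adjusted p = 0.373). At that probeset every array with an earlier code read 9.57 or more and every array with a later code 9.44 or less. This held for EC and ES arrays alike. The NTERA2 and 2102Ep pairs join an earlier with a later code. The 833KE pair, with later codes only, read 8.81 on feeders and 8.45 on plastic. The part of the code in this difference was not tested.

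ERCC1 and ERCC4 form the nuclease that cuts on the 5′ side of the lesion and that also acts on interstrand crosslinks. ERCC1 read 6.60 in NCCIT, 6.88 in 2102Ep, 6.67 in 833KE, 7.10 in TERA1 and 6.81 in NTERA2 on plastic. On feeders it read 7.58 in NTERA2, 7.95 in 2102Ep and 6.82 in 833KE. Among ES lines it read 8.09 in H14 and 8.19 in Shef5, and from 7.01 to 7.37 in Shef 6, Shef3, H9 and Shef7. The 4 arrays with earlier codes were the 4 highest, whether they held EC or ES cells.

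Tested across all clusters with the 3 groups in the model and the line as a random block, ERCC1 was 0.91 ± 0.14 (SE) higher in earlier-coded than in later-coded arrays (adjusted p = 0.00922). Over all clusters, 2% were called higher and 0.759% lower by code, and of the 7 genes ERCC1 alone was called. Within ES lines the means were 8.14 for the 2 earlier and 7.20 for the 4 later codes, and within EC lines on feeders 7.77 for the 2 earlier and 6.82 for the 1 later code. What the code stands for is not stated in the labels, and EC lines on plastic have later codes only. ERCC5 followed in the same direction with 0.58 (adjusted p = 0.105), and ERCC4 went the other way with -0.43 (adjusted p = 0.334). ERCC2 and ERCC3 differed by 0.03 and 0.04 between codes.

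With all arrays, ERCC1 averaged 6.81 ± 0.20 in EC lines on plastic (SD, n = 5) and 7.51 ± 0.51 in ES lines (SD, n = 6), a difference of -0.70 (95% interval -1.20 to -0.20, adjusted p = 0.109). On later-coded arrays alone the difference was -0.39 (adjusted p = 0.231). All 17 ERCC1 probesets had lower means in EC lines on plastic, and none was called. Probeset 3865401 had the smallest p, at -0.90 (adjusted p = 0.0933). On the median over its probesets all EC arrays on plastic stood below all ES arrays, while the cluster values overlapped. How many of all genes separate on probeset medians was not counted. The difference of these medians was -0.68 (limma's adjusted p = 0.0804, exact permutation p = 0.00649 with no adjustment). EC lines on feeders averaged 7.45 ± 0.57 (SD, n = 3), -0.06 from ES lines (95% interval -0.79 to 0.67, adjusted p = 0.953), and without 833KE, their 1 later-coded array, the difference was 0.25 (adjusted p = 0.744). It was -0.37 both with the array code as a block (adjusted p = 0.272) and on later-coded arrays alone, where EC lines on feeders are that 1 array.

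**Figure D3:**
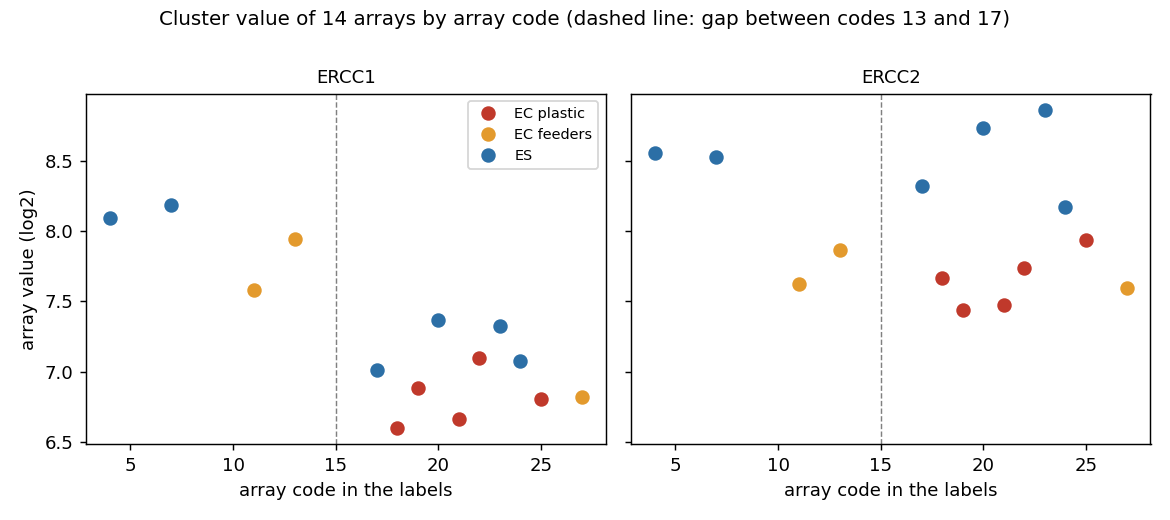
Cluster value (log2) of ERCC1 and ERCC2 against the array code, coloured by group; each point is 1 array and the dashed line marks the gap between codes 13 and 17. ERCC1 is at 7.58 or above left of the line and at 7.37 or below right of it, while ERCC2 separates EC from ES arrays on both sides.

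ERCC4 carries the active site of that nuclease. Its cluster read 7.91 in NCCIT, 7.93 in 2102Ep, 6.88 in 833KE, 7.22 in TERA1 and 7.43 in NTERA2 on plastic. On feeders it read 6.78 in NTERA2, 7.35 in 2102Ep and 6.85 in 833KE, and ES lines ran from 6.51 in Shef5 through a median of 7.06 to 7.50 in H9. NCCIT and 2102Ep on plastic were above all ES lines, and the other EC arrays were among them. The difference from ES lines was 0.48 on plastic (95% interval -0.02 to 0.98, adjusted p = 0.283) and 0.00 on feeders (95% interval -0.52 to 0.52, adjusted p = 0.999). Among its probesets, 14 of 16 had higher means on plastic and 8 of 16 on feeders, and the smallest p was at 3649031, with 0.74 on plastic (adjusted p = 0.130).

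ERCC5 cuts on the 3′ side. It read 6.22 ± 0.29 in EC lines on plastic (SD, n = 5), 6.32 ± 0.49 in EC lines on feeders (SD, n = 3) and 6.26 ± 0.27 in ES lines (SD, n = 6). The highest array was NTERA2 on feeders at 6.86 and the lowest 2102Ep on plastic at 5.81, so single EC lines enclosed the whole ES range of 5.90 to 6.67. The difference from ES lines was -0.04 on plastic (95% interval -0.42 to 0.34, adjusted p = 0.936) and 0.06 on feeders (95% interval -0.46 to 0.58, adjusted p = 0.933). Of its 26 probesets, 11 had higher means on plastic and 12 on feeders, and 3499649 had the smallest p, at -0.83 between feeders and plastic (adjusted p = 0.358).

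ERCC6 is a remodeller that recognises the stalled polymerase, and its only cluster was shared with PGBD3, whose coding sequence lies inside the ERCC6 gene. The median over its 20 probesets was 6.33 ± 0.64 in EC lines on plastic (SD, n = 5), 5.86 ± 0.44 in EC lines on feeders (SD, n = 3) and 6.12 ± 0.30 in ES lines (SD, n = 6). NTERA2 on plastic was highest at 7.28 and 833KE on feeders lowest at 5.39. The difference from ES lines was 0.21 on plastic (95% interval -0.36 to 0.79, adjusted p = 0.722) and -0.26 on feeders (95% interval -0.80 to 0.28, adjusted p = 0.640), with exact permutation p of 0.509 and 0.345. On plastic 18 of its 20 probesets had higher means than in ES lines, and on feeders 6.

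ERCC8 is the substrate receptor of the ubiquitin ligase that acts with ERCC6. Its cluster read from 4.55 in 2102Ep to 5.58 in NCCIT on plastic, from 3.76 in 833KE to 4.85 in NTERA2 on feeders, and from 4.22 in Shef5 to 5.13 in H9 among ES lines. The groups overlapped, and the 833KE feeder array lay lowest of all 14. The difference from ES lines was 0.40 on plastic (95% interval -0.07 to 0.88, adjusted p = 0.355) and -0.16 on feeders (95% interval -0.76 to 0.43, adjusted p = 0.823). Of its 7 probesets 2858688 had the smallest p, at 0.55 on plastic (adjusted p = 0.232). That probeset, 2858687 and 2858698 read between 0.92 and 2.60 on every array, near the low end of the scale, and whether they stood above background was not tested. Means below 4.82, the 25th percentile of all probesets, were found for these 3, for 7 of 26 probesets of ERCC5, 4 of 9 of XPA, 3 of 20 of ERCC6 and 1 of 17 of ERCC1.

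**Figure D4:**
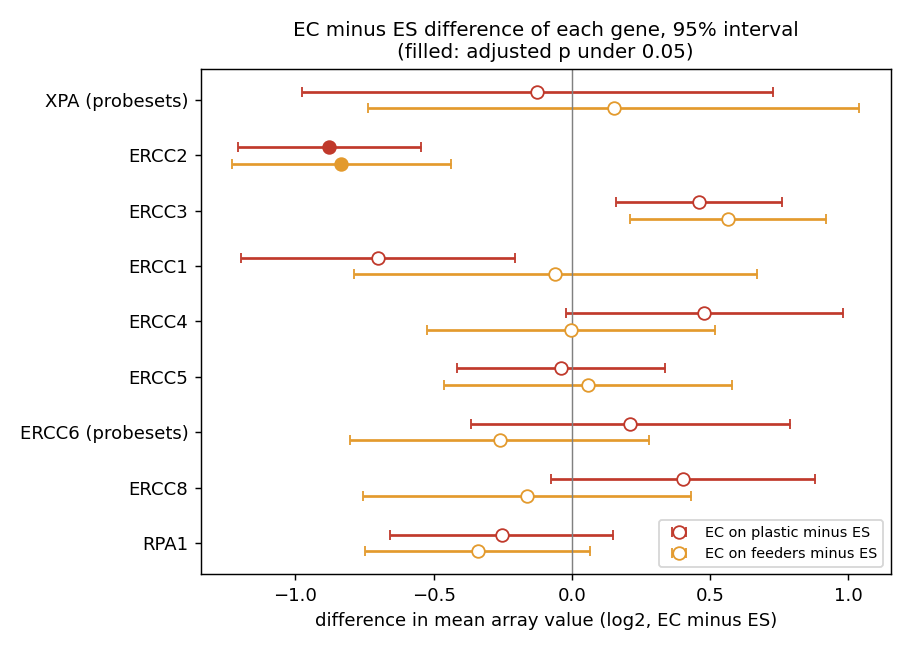
Difference in mean array value (log2) of each gene, EC lines on plastic minus ES lines and EC lines on feeders minus ES lines, with 95% intervals; filled points were called. Only the 2 ERCC2 points, at -0.88 and -0.83, are filled, and the ERCC3 intervals lie above 0 in both comparisons.

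Growth on feeders was set against growth on plastic in the 3 lines measured under both conditions, with the line as a block. None of the 9 genes was called, nor was any of all clusters, probesets or probeset medians (0% called in each). At an unadjusted p under 0.05 limma gave 3276 of 22011 clusters. ERCC1 was 0.78 higher on feeders in NTERA2, 1.06 in 2102Ep and 0.16 in 833KE. The average was 0.67 (95% interval 0.09 to 1.24, adjusted p = 0.299). The NTERA2 and 2102Ep pairs join an earlier code on feeders with a later code on plastic, and 833KE is the only pair within 1 code range.

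The probeset median of ERCC6 was lower on feeders in all 3 lines, by -1.36 in NTERA2, -0.27 in 2102Ep and -0.59 in 833KE, and 19 of its 20 probesets had lower means, by -1.72 at probeset 3288720 (adjusted p = 0.354). The average was -0.74 (95% interval -1.35 to -0.12, adjusted p = 0.269). ERCC4 was likewise lower in each line, at -0.64 in NTERA2, -0.59 in 2102Ep and -0.03 in 833KE (average -0.42, adjusted p = 0.393). For both genes the NTERA2 and 2102Ep pairs join an earlier with a later code. Over all arrays, earlier-coded minus later-coded ERCC4 was -0.43 in the limma fit of the code (adjusted p = 0.334). The part of the code in these feeder differences was not tested. ERCC8 differed by -0.50 on average (adjusted p = 0.531), of which 833KE alone had -1.45, and without 833KE the average was -0.02. ERCC2 and ERCC3, which separated EC from ES lines, averaged 0.08 (95% interval -0.44 to 0.60) and 0.00 (95% interval -0.48 to 0.48) between feeders and plastic.

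Differences between NTERA2, 2102Ep and 833KE were tested with the growth condition in the model. None of the 7 genes was called, against 0.291% of all clusters. ERCC4 had the smallest adjusted p of the 7 (0.263), with line means of 7.64 in 2102Ep, 7.10 in NTERA2 and 6.87 in 833KE. For ERCC3 the line means were 8.64 in 833KE, 8.36 in NTERA2 and 8.14 in 2102Ep (adjusted p = 0.460). The range between line means of ERCC2 was 0.24, less than its average difference of 0.29 between the 2 arrays of a line.

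The use of single exons was compared by setting each probeset's difference against that of the other probesets of its gene. After filters on dim probesets and genes, 63 probesets of ERCC2, ERCC3 and RPA1 could be tested on plastic and 84 of ERCC1, ERCC2, ERCC3, RPA1 and XPA on feeders. None was called, against 0.171% of all probesets tested on plastic and 0.0632% on feeders. At an unadjusted p under 0.05 limma's diffSplice gave 3 of these probesets in each comparison, where 4.26% of all probesets tested passed on plastic and 3.16% on feeders. The smallest adjusted p was at ERCC2 probeset 3865322 in both, whose difference was 0.58 above that of the other ERCC2 probesets on plastic (adjusted p = 0.552) and 0.74 on feeders (adjusted p = 0.699). Without the filters, ERCC5 probeset 3499672 came first, at 0.96 on plastic (adjusted p = 0.254) and 1.35 on feeders (adjusted p = 0.303).

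Other genes of the same and adjoining repair pathways were grouped by function, and 53 had a cluster. On plastic 2 of the 53 rose (3.77%, with 3.26% of all clusters called higher) and 0 fell. On feeders none of the 53 was called. At an unadjusted p under 0.05 limma gave 15 of the 53 on plastic (28.3%, against 19.2% of all clusters) and 16 on feeders (30.2%, against 17.6%). The median difference over the 53 was 0.18 on plastic and 0.24 on feeders, where the median of all clusters was 0.00 and 0.04.

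Of 7 genes of damage recognition, CUL4B, a scaffold of the ubiquitin ligase that carries DDB2, rose by 1.08 on plastic (adjusted p = 0.00627) and read 0.47 higher on feeders (adjusted p = 0.254). Its mean was 9.29 ± 0.31 in EC lines on plastic (SD, n = 5) and 8.21 ± 0.26 in ES lines (SD, n = 6), with no overlap. CUL4A, of the same list, went the other way, with -0.55 on plastic (adjusted p = 0.109) and -0.97 on feeders (adjusted p = 0.165). In each comparison 4 of the 7 had a higher mean in EC lines and 3 a lower one. Among 17 genes of interstrand crosslink repair, UBE2T, the ubiquitin-conjugating enzyme of the Fanconi pathway, rose by 1.10 on plastic (adjusted p = 0.0304). It averaged 9.03 ± 0.28 in EC lines on plastic (SD, n = 5) and 7.93 ± 0.55 in ES lines (SD, n = 6), and the difference on feeders was 1.02 (adjusted p = 0.151).

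Of 8 listed TFIIH subunits other than the helicases, 4 had a cluster of their own. These 4 had higher means in EC lines in both comparisons, and none was called. The median difference was 0.44 on plastic and 0.39 on feeders. GTF2H3 had 0.69 (adjusted p = 0.120) and GTF2H1 0.49 (adjusted p = 0.202) on plastic, and GTF2H5 had 0.99 (adjusted p = 0.0574) and GTF2H1 0.52 (adjusted p = 0.235) on feeders. ERCC2, a subunit of the same complex, had -0.88 and -0.83. Of 2 other RPA subunits, RPA2 had 0.71 on plastic (adjusted p = 0.0936) and 0.36 on feeders (adjusted p = 0.307), and RPA4 -0.25 and -0.27.

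No gene was called among 16 of gap filling and ligation, 3 of mismatch repair and 4 partners of transcription-coupled repair. By smallest p on plastic, the ligase LIG1 had -0.48 (adjusted p = 0.0664) and the polymerase POLK 0.97 (adjusted p = 0.0958). On feeders LIG1 had -0.36 (adjusted p = 0.284) and POLK -0.17 (adjusted p = 0.864), and the smallest p of that list were those of the polymerase subunits POLE4, at 1.27 (adjusted p = 0.0620), and POLD2, at 0.43 (adjusted p = 0.243). The mismatch repair genes MSH6 and EXO1 had 0.64 (adjusted p = 0.0642) and 0.65 (adjusted p = 0.0775) on plastic. On feeders MSH6 had 0.52 (adjusted p = 0.167), PMS1 -0.28 (adjusted p = 0.614) and EXO1 0.20 (adjusted p = 0.744). XAB2 and ELOF1, of the transcription-coupled partners, had 0.28 (adjusted p = 0.535) and 0.18 (adjusted p = 0.779) on plastic, and 0.60 (adjusted p = 0.153) and 0.44 (adjusted p = 0.420) on feeders.

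**Figure D5:**
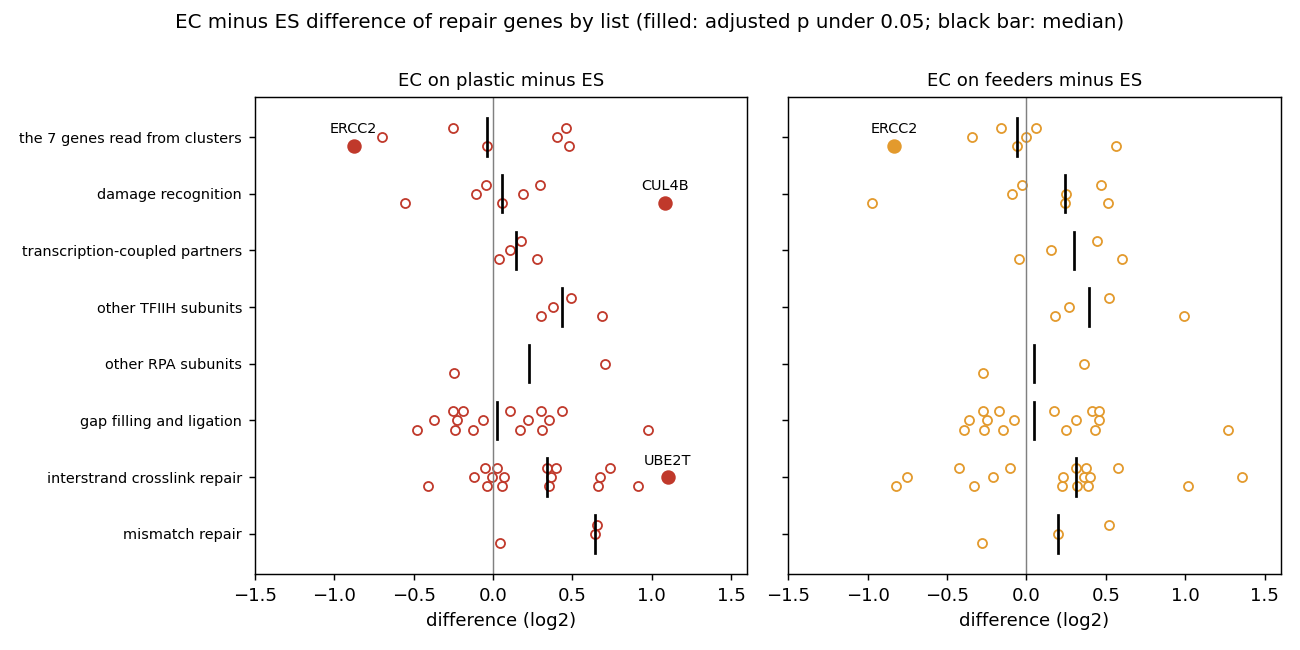
Difference in mean array value (log2), EC lines on plastic minus ES lines on the left and EC lines on feeders minus ES lines on the right, for the 7 genes with a cluster and for 53 other repair genes by list; each point is 1 gene, black bars are list medians and filled points were called. ERCC2 is the only called gene on the lower side, CUL4B and UBE2T were called higher on plastic, and the 4 other measured TFIIH subunits all lie right of 0.

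For each of the 9 genes the 2 most similar genes were taken by Pearson's r over the 14 gene-level arrays, among clusters of 1 symbol above the median level. ERCC2 was most like AJUBA and GPR176 (both r = 0.928). ERCC3 was most like RPIA (r = 0.98) and TXNDC9 (r = 0.913), which lie on chromosome 2 as ERCC3 does. ERCC1 was most like PPM1F (r = 0.96) and SH3GLB2 (r = 0.956), and ERCC4 like NF1 (r = 0.914) and AHCYL2 (r = 0.909). ERCC6 was most like HK2 (r = 0.927) and ND5 (r = 0.92), and XPA like UBN1 (r = 0.925) and ARID1A (r = 0.918). RPA1 was most like WBP1L (r = 0.921) and FAT1 (r = 0.883), and ERCC5 like RAPGEF1 (r = 0.842) and EIF4G1 (r = 0.83). ERCC8 was most like ZNF326 (r = 0.905) and RAD1 (r = 0.895), of which RAD1 lies on chromosome 5 as ERCC8 does. All the other similar genes lie on a different chromosome from the gene they resemble, or for ND5 in mitochondrial DNA. The arrays behind these values share their lines, groups and codes, and the genes were picked as the highest of many, so the values are a description.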

How the data were processed

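The deposited gene-level and exon-level values are log2 values, 1 per cluster or probeset and array. RMA, Affymetrix Expression Console and limma are named, with no version or setting, per the submitters' processing notes. The log base is inferred from the range these take, and the genome build of the probes is not given in the sources used here, so no probe positions are printed. Array medians differ slightly, and whether arrays were quantile normalised is not given in the sources used here. No detection call was used, and the precision is limited by the number of arrays. Replicates of a group are different lines, so p-values of EC against ES lines measure the spread between lines. For feeders against plastic they measure the spread of the paired differences. In the test between EC lines they measure the spread between arrays of a line, with the growth condition in the model.

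Symbols came from the platform annotation. The 9 genes, the lists and the rules were chosen with earlier results of these data known. Named are all 9 genes, their called probesets or else the 1 with the smallest p, called members of each list (the 2 with the smallest p where there were none, and others where a result turned on them), and the 2 most similar clusters of each gene. Values were tested as deposited with limma 3.58.1 in R 4.3.3 (lmFit, eBayes, two-sided, Benjamini-Hochberg over all features, threshold 0.05), with the line as a block for feeders against plastic, where the labels give the same 3 lines. Deviations of feeder and plastic arrays of a line correlated with r = 0.507 for NTERA2, 0.405 for 2102Ep and 0.342 for 833KE. Exon usage was tested with diffSplice, keeping probesets over the 25th percentile of signal, genes over the median and 3 or more probesets a gene, and calling a difference of 1 or more. The median over a gene's probesets was tested by exact permutation and, chosen after seeing the data, by limma over 16941 genes. The coefficient of the array code was also chosen after seeing the data. Promoters are RefSeq's (GRCh38.p14). The scripts were tested on simulated data. Alternatives were other scalings, a filter on dim features, a trended robust variance, the array code, a shared spread, values relative to the chromosome, and leaving out each array. Figures were drawn with matplotlib 3.10.9.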

Additional observations from a re-analysis of the deposited data

Results flagged for a closer look

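Of 18 combinations of gene and group checked for a single array far from the others, 1 stood out. ERCC3 read 8.73 in 833KE on plastic, where the next highest of the 5 EC lines on plastic had 8.22 and the lowest 8.05. The gap was 0.744 of the group's whole range. Chance flags about 1 in 20 such groups. The feeder array of the same line read 8.55 for ERCC3, and without the plastic array of 833KE the difference between EC lines on plastic and ES lines was 0.35 (adjusted p = 0.157), against 0.46 with it.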

How the results depend on the processing

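The count of the 7 genes called in EC lines on plastic against ES lines was 1, ERCC2, under every alternative run. For EC lines on feeders against ES lines it was 1. It fell to 0 under a trended robust variance, and also when the array code was blocked. It ran from 0 to 1 when single arrays were left out. Of the 158 probesets, 7 were called on plastic, against 15 with array medians centred, 13 without dim features, 13 with a trended robust variance, 16 after quantile normalisation, 4 with the code as a block and 1 on later-coded arrays alone. Leaving out single arrays gave 3 to 10, with 3 without 2102Ep, and 4 without 833KE or H14. On feeders 1 probeset was called, and 3 with centring, without dim features, with a trended robust variance or after quantile normalisation. It was 0 to 1 when single arrays were left out. Over all alternatives run on feeders against ES lines, this count stayed at 1 in 2 and changed in 13. The cause of these changes was not tested. Later-coded arrays alone leave 833KE as the only EC array on feeders, so no count is given for that fit against ES lines. In feeders against plastic no gene or probeset was called with the line as a block or with no replicate block (0 in both fits), and line differences and exon usage stayed at 0 called under every alternative run. No called difference changed sign. ERCC1, ERCC4, ERCC5 and ERCC8, none of them called, changed sign under some alternatives on feeders against ES lines (3, 7, 4 and 1 of 18), as did ERCC5 on plastic (5 of 22) and ERCC2, ERCC3 and ERCC5 between feeders and plastic (1, 3 and 3 of 10). The probeset median of XPA, not called either, changed sign under 1 alternative in each EC-ES comparison. Rescaling moved the median of all clusters by less than 0.05.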

Other observations

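ERCC2 and ERCC1 lie near each other on chromosome 19. Leaving out the 9 repair genes, ERCC1 among them, none of the 10 nearest measured genes around ERCC2 was called in any comparison, and their differences between EC lines on plastic and ES lines ran from -0.35 to 0.55, with a median of -0.22. Between EC lines on feeders and ES lines their median was -0.02. Around ERCC3 on chromosome 2 the median of 10 genes was 0.07 on plastic, and MAP3K2 rose there by 1.10 (adjusted p = 0.0488), while BIN1 rose by 0.92 on feeders (adjusted p = 0.0368). RAB3C, a neighbour of ERCC8, had -2.15 on plastic (adjusted p = 0.00692) and -2.52 on feeders (adjusted p = 0.0109). On plastic CTSV near XPA had -1.20 (adjusted p = 0.0136) and BMERB1 near ERCC4 -0.88 (adjusted p = 0.0266). These 5 genes were named after their values were seen.

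The 5 clusters that join ERCC1, ERCC2, ERCC6, ERCC8 or XPA with another gene were not called in any comparison. The cluster shared by KLC3 and ERCC2 averaged 5.63 ± 0.17 in EC lines on plastic (SD, n = 5) and 5.79 ± 0.20 in ES lines (SD, n = 6), a difference of -0.15 (adjusted p = 0.597). That shared by POLR1G and ERCC1 had -0.08 (adjusted p = 0.861), that of XPA and NCBP1 -0.03 (adjusted p = 0.968) and that of ERCC6 and PGBD3 0.35 (adjusted p = 0.376).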
